A study of Homo sapiens with 12 samples.

Results

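Messenger RNA levels of 10 ATP-binding cassette (ABC) transporters were followed in 2 human breast cancer lines, BT-549 and SUM149, after silencing of MUC1. The 10 genes were chosen by name, with earlier results of these libraries known, as the drug efflux pumps ABCG2, ABCB1, ABCC1, ABCC2, ABCC3, ABCC4, ABCC5 and ABCC10 and the lipid exporters ABCA1 and ABCG1. No measured value entered the rule itself, but because the choice was made with the results in view, the calls below describe these genes and support nothing about the family. They are 10 of 57992 gene identifiers in the table, and the other 38 ABC genes were counted beside them.

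RNA sequencing reports a gene's transcript level as the number of reads assigned to it. Both are established lines of the triple-negative type, whose tumours lack estrogen receptor, progesterone receptor and HER2. The 4 groups, with 3 libraries each, were BT-549 cells with a stable short hairpin RNA against MUC1-C (MUC1shRNA), BT-549 cells with a control hairpin (CshRNA, also called vector in the descriptions), SUM149 cells with MUC1shRNA and SUM149 cells with CshRNA. BT-549 was grown in RPMI1640 with serum and insulin, and SUM149 in Ham's F-12 with HEPES, serum, insulin and hydrocortisone, so line and medium cannot be told apart. Whether the 3 sets of a group were separate introductions of the hairpin is not stated, so the p-values speak of the spread among these 3 sets, which may be technical.

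ABC transporters use ATP to move substrates across membranes. ABCG2 (breast cancer resistance protein), ABCB1 (P-glycoprotein) and several ABCC proteins (multidrug resistance-associated proteins) export anticancer drugs or their conjugates and are known for their part in drug-resistant breast tumours. ABCA1 hands cholesterol and phospholipid to lipid-poor apolipoprotein A-I, ABCG1 exports cholesterol towards high-density lipoprotein, and both genes are classical targets of the liver X receptors, LXR, which sense oxysterols. On GRCh38, GENCODE places ABCG2 at chr4:88090264-88231322 on the minus strand, ABCB1 at chr7:87503633-87713323 on the minus strand, ABCC1 at chr16:15949577-16143074 on the plus strand and ABCC2 at chr10:99782640-99852594 on the plus strand. It places ABCC3 at chr17:50634777-50692252 on the plus strand, ABCC4 at chr13:95019829-95301475 on the minus strand, ABCC5 at chr3:183919934-184018015 on the minus strand and ABCC10 at chr6:43427366-43450430 on the plus strand. The lipid exporters are ABCA1 at chr9:104781002-104928237 on the minus strand and ABCG1 at chr21:42199689-42297244 on the plus strand.

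Total counts per library ran from 16373893 to 21248768 in BT-549 MUC1shRNA, from 16332364 to 20745835 in BT-549 CshRNA, from 7931614 to 9623924 in SUM149 MUC1shRNA and from 19392422 to 24140623 in SUM149 CshRNA, so the SUM149 MUC1shRNA libraries were the shallowest. Levels are given as CPM, counts scaled to 1000000 of a library's total after scaling by TMM (trimmed mean of M-values). MUC1, the gene targeted, averaged 4.63 ± 1.244 CPM in BT-549 MUC1shRNA and 53.3 ± 1.23 CPM in BT-549 CshRNA, and 0.625 ± 0.384 CPM in SUM149 MUC1shRNA and 15.02 ± 2.51 CPM in SUM149 CshRNA (SD, n = 3 each). Its log2 fold change was -3.53 (SE 0.14, edgeR adjusted p = 4.2e-07) in BT-549 and -4.59 (SE 0.27, edgeR adjusted p = 1.8e-08) in SUM149, and every silenced library lay below every control library. Of the leukocyte markers, CD3E was at 0 in every group, and the list summed to at most 5.02 CPM in any library. Endothelial markers summed to 0.267 to 0.411 CPM in BT-549 MUC1shRNA and 0.332 to 0.783 CPM in BT-549 CshRNA, and to 9.44 to 11.2 CPM in SUM149 MUC1shRNA and 26.8 to 30.2 CPM in SUM149 CshRNA, there nearly all PECAM1. The progesterone receptor gene PGR was under 1 CPM in every group, the estrogen receptor gene ESR1 averaged 4.88 CPM in SUM149 MUC1shRNA and 2.31 CPM in SUM149 CshRNA, and ERBB2, the HER2 gene, averaged 36.5 to 58.5 CPM over the 4 groups. The summed level of 6 epithelial markers was 806 to 1045 CPM in BT-549 MUC1shRNA libraries and 328 to 382 CPM in BT-549 CshRNA libraries, and 1772 to 1848 CPM and 1818 to 1845 CPM in the SUM149 libraries with MUC1shRNA and with CshRNA. In BT-549 that was mostly KRT18 (655 CPM with MUC1shRNA, 290 CPM with CshRNA) and KRT8 (282 and 44.5 CPM), while EPCAM averaged 0.0368 and 0.287 CPM. The summed level of 5 mesenchymal markers was 5416 to 6519 CPM in BT-549 MUC1shRNA and 4418 to 5073 CPM in BT-549 CshRNA, and 3029 to 3406 CPM in SUM149 MUC1shRNA and 815 to 915 CPM in SUM149 CshRNA. In SUM149 that was nearly all FN1 (3100 and 766 CPM). VIM (32.2 and 31.4 CPM) and CDH2 (52.6 and 50.9 CPM) differed little there, and ZEB1 and SPARC were under 1 CPM. The part of these marker shifts in the transporter results was not tested, and in bulk RNA fewer expressing cells and less RNA per cell cannot be told apart. The libraries BT-549 MUC1shRNA 2 and BT-549 CshRNA 3 deviated from their groups together (r = 0.557 over 10086 genes). Without both, 6 of the transporters tested in BT-549 were again called, and ABCA1, whose value moved most, is given with and without them. The other log2 fold changes were then 2.28 for ABCG2, -0.24 for ABCC1, 0.34 for ABCC2, 0.39 for ABCC3, -0.51 for ABCC4, -0.53 for ABCC5, 0.14 for ABCC10 and -0.02 for ABCG1.

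ABCG2 and ABCA1 rose in both lines, ABCA1 in BT-549 on few counts, and the RefSeq sequences (GRCh38.p14) directly before their starts are shown here because these were the only 2 of the 10 genes called in the same direction in both lines. Capitals mark matches to 6 motifs searched on both strands. The motifs were the GC box GGGCGG, the E-box CACGTG, the antioxidant response element core TGACNNNGC, the nuclear receptor half-site AGGTCA, the hypoxia response core ACGTG, which lies within the E-box, and the TATA box TATAAA. Each run holds the 250 bases before the annotated start, 5′ to 3′ on the gene's strand. ABCG2 is shown for the middle of its 5 RefSeq starts, at chr4:88158910-88159159 on the minus strand. ABCA1 is shown at chr9:104928156-104928405 on the minus strand. ABCC10, whose level moved least between groups, is shown for the first of its 2 starts, at chr6:43427291-43427540 on the plus strand, because it holds the same E-box.
ABCG2: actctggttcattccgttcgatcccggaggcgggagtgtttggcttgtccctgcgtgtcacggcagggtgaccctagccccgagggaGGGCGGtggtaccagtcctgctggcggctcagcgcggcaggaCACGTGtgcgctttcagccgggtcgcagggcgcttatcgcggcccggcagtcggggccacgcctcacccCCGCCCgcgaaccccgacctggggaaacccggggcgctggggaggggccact
ABCA1: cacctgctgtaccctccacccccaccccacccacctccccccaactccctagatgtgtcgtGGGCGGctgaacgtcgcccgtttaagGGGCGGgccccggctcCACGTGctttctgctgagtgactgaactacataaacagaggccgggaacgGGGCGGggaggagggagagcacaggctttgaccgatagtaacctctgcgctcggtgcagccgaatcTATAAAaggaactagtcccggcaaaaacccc
ABCC10: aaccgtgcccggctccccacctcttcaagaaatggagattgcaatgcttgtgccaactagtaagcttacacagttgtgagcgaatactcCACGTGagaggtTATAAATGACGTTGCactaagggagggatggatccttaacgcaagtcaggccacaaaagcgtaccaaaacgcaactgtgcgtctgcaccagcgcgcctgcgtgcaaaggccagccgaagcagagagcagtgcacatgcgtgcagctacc
Counted from the start, with the base before it as -1, the E-box CACGTG lay at -121 to -116 in ABCG2, at -147 to -142 in ABCA1 and at -161 to -156 in ABCC10. The 300-base RefSeq windows, which add 50 bases after the start, were found for 7 of the 10 genes, 13 windows in all. An E-box was in 4 of these 13 windows, 2 of them overlapping windows of ABCG2, and in 7.26% of all 35116 RefSeq windows. A GC box was in 5 of the 13 windows and in 45% of all windows. Of all windows, 13.3% held the antioxidant core, 13.8% the half-site, 21.4% the hypoxia core and 11.5% the TATA box. The E-box was in 2 of the 5 windows of ABCG2, in the 1 window of ABCA1 and in 1 of the 2 windows of ABCC10, a gene that passed the test in neither line. The ABCC10 start shown was picked because its window holds the E-box, and the window of its other start holds none. A match of letters is a description of the window and says nothing of binding.

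In BT-549, silencing of MUC1 went with higher ABCG2, ABCA1 and ABCC3 and with lower ABCC1, ABCC4 and ABCC5. Of the 10 transporters, 9 had enough counts to be tested, and 6 of these were called by edgeR's quasi-likelihood test at a Benjamini-Hochberg adjusted p below 0.05, 3 higher and 3 lower in MUC1shRNA cells. Over all 13200 genes tested in this line, 33.3% were called. The 2 groups' libraries did not overlap for 6 of the 9, against 47% of all genes. The median log2 fold change of the 9 was 0.08, beside -0.01 over all genes, so there was no common direction.

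In SUM149, ABCA1, ABCG2, ABCC4, ABCC5 and ABCC1 were higher and ABCG1, ABCC3 and ABCC2 lower in MUC1shRNA cells. That made 8 of 9 tested transporters called, 5 higher and 3 lower, in a line where 56.5% of 14178 genes were called. Libraries did not overlap for 8 of the 9, against 62.5% of all genes. The median log2 fold change of the 9 was 0.48, beside -0.03 over all genes. Of the 6 transporters called in both lines, 2 changed in the same direction and 4 in opposite directions. Of the 2547 genes called in both lines, 47.3% changed in opposite directions.

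**Figure D1:**
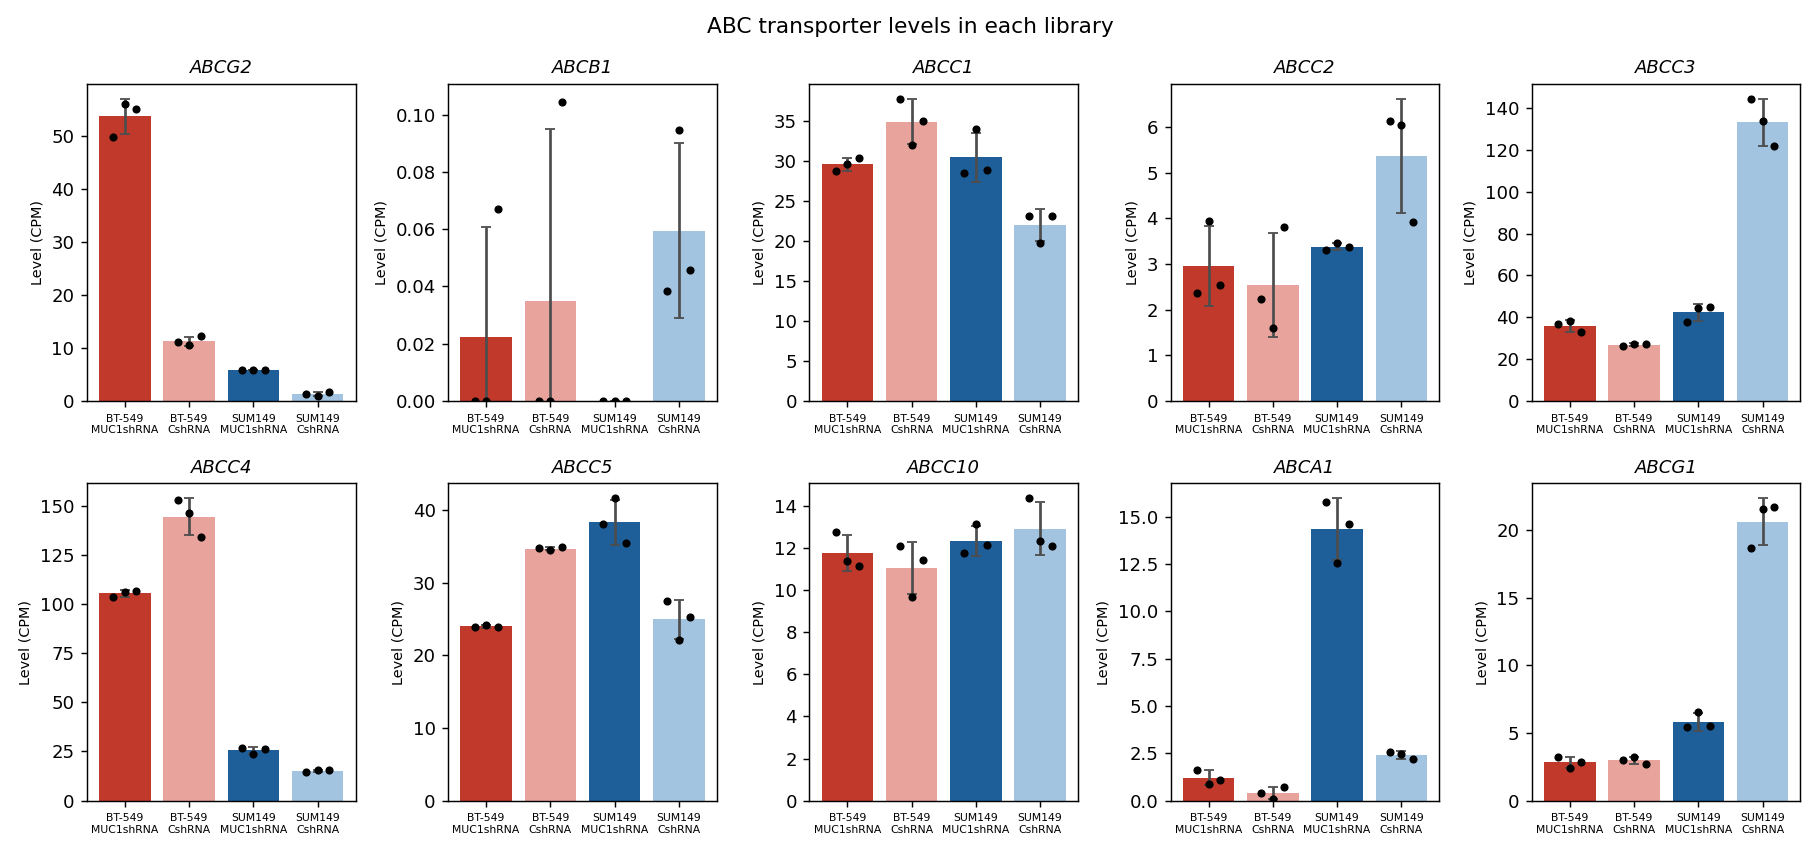
Level of each of the 10 transporters in CPM, on a separate linear axis for each gene. Bars are means of 3 libraries, error bars SD and points single libraries. ABCG2 stands highest in BT-549 MUC1shRNA at 49.8 to 56.0 CPM, ABCC3 in SUM149 CshRNA at 121.9 to 144 CPM, and ABCB1 had at most 2 counts in any library.

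ABCG2, which exports mitoxantrone, topotecan and urate, was the pump with the largest rise in BT-549. It had 49.8, 56.0 and 55.1 CPM in BT-549 MUC1shRNA, against 11.0, 10.5 and 12.2 CPM in BT-549 CshRNA. Every silenced library lay above every control library. The log2 fold change was 2.25 (SE 0.09, 4.75-fold) with an adjusted p of 4.2e-07 in edgeR's quasi-likelihood test.

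In SUM149 the gene was present at a lower level in both groups. ABCG2 had 5.89, 5.90 and 5.87 CPM in SUM149 MUC1shRNA, against 1.23, 0.945 and 1.69 CPM in SUM149 CshRNA, again without overlap. These rested on 164 counts over the 3 silenced libraries and 89 counts over the 3 controls. The log2 fold change was 2.20 (SE 0.24, edgeR adjusted p = 4.1e-06). The BT-549 response minus the SUM149 response was 0.06 on the log2 scale (SE 0.21, edgeR interaction, adjusted p = 0.9), and its sign depended on the libraries included. The 4 groups stood in the order BT-549 MUC1shRNA, BT-549 CshRNA, SUM149 MUC1shRNA, SUM149 CshRNA, and no neighbours overlapped. The mean was 9.11 times higher in BT-549 than in SUM149 with MUC1shRNA and 8.75 times higher with CshRNA.

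ABCA1, the cholesterol and phospholipid exporter, rose most in SUM149. It had 15.8, 12.6 and 14.6 CPM in SUM149 MUC1shRNA, against 2.57, 2.46 and 2.19 CPM in SUM149 CshRNA. Every silenced library lay far above the controls, and the log2 fold change was 2.58 (5.99-fold, SE 0.16, edgeR adjusted p = 2.2e-08). In BT-549 the gene was close to the limit of detection, with 32, 15 and 16 counts in MUC1shRNA and 7, 1 and 14 counts in CshRNA. The 2 groups met closely at 0.884 CPM in the lowest silenced library and 0.730 CPM in the highest control. The log2 fold change there was 1.52 (SE 0.51, edgeR adjusted p = 0.043). That call was lost without MUC1shRNA 1 (adjusted p = 0.18), MUC1shRNA 3 (0.077), CshRNA 1 (0.12) or CshRNA 2 (0.076) in edgeR, and without the pair that deviated together the log2 fold change was 2.48 (adjusted p = 0.002). The difference between the lines, -1.05 (SE 0.53), did not pass the edgeR interaction test (adjusted p = 0.14), though it was -1.5 without BT-549 CshRNA 2 (adjusted p = 0.014).

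ABCG1, which loads cholesterol onto high-density lipoprotein, did not move with ABCA1. In SUM149 it had 5.42, 6.57 and 5.49 CPM with MUC1shRNA, against 18.7, 21.5 and 21.7 CPM with CshRNA. It fell in every silenced library, by 1.81 on the log2 scale (SE 0.13, edgeR adjusted p = 7.6e-08). In BT-549 it had 3.24, 2.42 and 2.87 CPM with MUC1shRNA and 3.02, 3.25 and 2.71 CPM with CshRNA, which overlapped (log2 fold change -0.07, SE 0.18, edgeR adjusted p = 0.8). The responses differed by 1.76 between BT-549 and SUM149 (SE 0.21, edgeR interaction, adjusted p = 1e-05). The 2 lipid exporters thus changed in opposite directions in SUM149, where both passed the test.

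ABCC3, an exporter of glucuronide conjugates and bile salts, was the transporter whose responses differed most between the lines. In SUM149 it had 37.7, 44.6 and 44.8 CPM with MUC1shRNA, against 144, 134 and 122 CPM with CshRNA. It fell by 1.64 on the log2 scale (SE 0.09, edgeR adjusted p = 7.9e-09). In BT-549 it had 36.7, 38.3 and 32.8 CPM with MUC1shRNA, against 26.2, 27.2 and 27.2 CPM with CshRNA. All 3 silenced libraries were above the controls, and the log2 fold change was 0.42 (SE 0.08, edgeR adjusted p = 0.0032). The difference between the responses was 2.07 (SE 0.12, edgeR interaction, adjusted p = 1.2e-08).

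ABCC4, ABCC5 and ABCC1 shared the reverse pattern, lower in BT-549 and higher in SUM149 with MUC1shRNA. ABCC4, which exports cyclic nucleotides, prostaglandins and nucleotide analogues, had 103.5, 106 and 107 CPM in BT-549 MUC1shRNA, against 153, 146 and 134 CPM in BT-549 CshRNA. All silenced libraries lay below all controls (log2 fold change -0.46, SE 0.06, edgeR adjusted p = 0.00043). In SUM149 it had 26.6, 23.6 and 26.5 CPM with MUC1shRNA, against 14.6, 15.4 and 15.5 CPM with CshRNA and rose by 0.77 on the log2 scale (SE 0.09, edgeR adjusted p = 1.3e-05). The responses of ABCC4 differed by -1.21 (SE 0.10, edgeR interaction, adjusted p = 3.1e-07).

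ABCC5, a pump for cyclic GMP and fluoropyrimidine nucleotides, had the tightest BT-549 groups. It had 24.0, 24.2 and 23.9 CPM in BT-549 MUC1shRNA, against 34.8, 34.5 and 34.9 CPM in BT-549 CshRNA (log2 fold change -0.54, SE 0.06, edgeR adjusted p = 0.00031). In SUM149 it had 38.1, 41.6 and 35.4 CPM with MUC1shRNA, against 27.6, 22.1 and 25.2 CPM with CshRNA (log2 fold change 0.63, SE 0.10, edgeR adjusted p = 0.00013). Neither pair of groups overlapped, and the lines exchanged rank: with MUC1shRNA the mean was 1.60 times higher in SUM149 than in BT-549, and with CshRNA it was 1.39 times higher in BT-549. The difference between the responses was -1.15 (SE 0.12, edgeR interaction, adjusted p = 3.2e-06).

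ABCC1, which exports glutathione conjugates, leukotriene C4 and anthracyclines, changed least among the called genes. It had 28.7, 29.6 and 30.3 CPM in BT-549 MUC1shRNA, against 37.7, 32.0 and 35.0 CPM in BT-549 CshRNA. The groups were apart, but by little (log2 fold change -0.25, SE 0.08, edgeR adjusted p = 0.035). DESeq2 gave an adjusted p of 0.066 and the edgeR fit of all 12 libraries 0.058. Leaving out any single BT-549 library other than CshRNA 2 gave edgeR adjusted p-values from 0.061 to 0.13. In SUM149 the gene had 28.4, 34.0 and 28.9 CPM with MUC1shRNA, against 23.1, 19.7 and 23.1 CPM with CshRNA, and rose by 0.48 (SE 0.10, edgeR adjusted p = 0.0011). The responses differed by -0.71 (SE 0.13, edgeR interaction, adjusted p = 0.00051).

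ABCC2, an apical exporter of bilirubin glucuronides and cisplatin conjugates, was low in both lines. In SUM149 it had 3.30, 3.45 and 3.37 CPM with MUC1shRNA, against 6.13, 6.05 and 3.92 CPM with CshRNA, so 1 control stood close to the silenced libraries. The log2 fold change was -0.66 (SE 0.21, edgeR adjusted p = 0.018). The call was lost in the edgeR fit of all 12 libraries (adjusted p = 0.069). It was also lost without CshRNA 1 (0.073), CshRNA 2 (0.065), MUC1shRNA 2 (0.051) or MUC1shRNA 3 (0.055) in edgeR. Without CshRNA 3, the control close to the silenced libraries, the log2 fold change was -0.85 (edgeR adjusted p = 0.00017). In BT-549 it had 2.37, 3.95 and 2.54 CPM with MUC1shRNA and 2.24, 1.59 and 3.81 CPM with CshRNA, which overlapped (log2 fold change 0.18, SE 0.32, edgeR adjusted p = 0.7). The highest value of each BT-549 group came from the library pair that deviated together. The responses differed by 0.86 (SE 0.42), which did not pass the edgeR interaction test (adjusted p = 0.12). It passed without BT-549 CshRNA 3 (1.28, edgeR adjusted p = 0.015), without SUM149 CshRNA 3 (1.03, adjusted p = 0.035) and with no filter on low counts (0.87, adjusted p = 0.037).

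ABCC10, which exports taxanes in transport assays, ranged from 11.2 to 12.8 CPM in BT-549 MUC1shRNA, from 9.68 to 12.1 CPM in BT-549 CshRNA, from 11.8 to 13.1 CPM in SUM149 MUC1shRNA and from 12.1 to 14.4 CPM in SUM149 CshRNA. All neighbouring groups overlapped, and the gene passed the test in neither line, with log2 fold changes of 0.08 (SE 0.11) in BT-549 and -0.05 (SE 0.12) in SUM149. Of the 10 it is the one gene whose exons overlap another gene, by 0.98% of their bases with DLK2 on the opposite strand. ABCB1, the P-glycoprotein gene, was near 0 everywhere and could not be tested. It had 0, 0 and 1 counts in BT-549 MUC1shRNA and 0, 0 and 2 in BT-549 CshRNA, and 0, 0 and 0 in SUM149 MUC1shRNA and 1, 2 and 1 in SUM149 CshRNA. A count of 0 allows up to 3 counts, which is 0.115 to 0.354 CPM depending on the library and covers counting error only, so a difference between groups was not detectable at this depth.

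**Figure D2:**
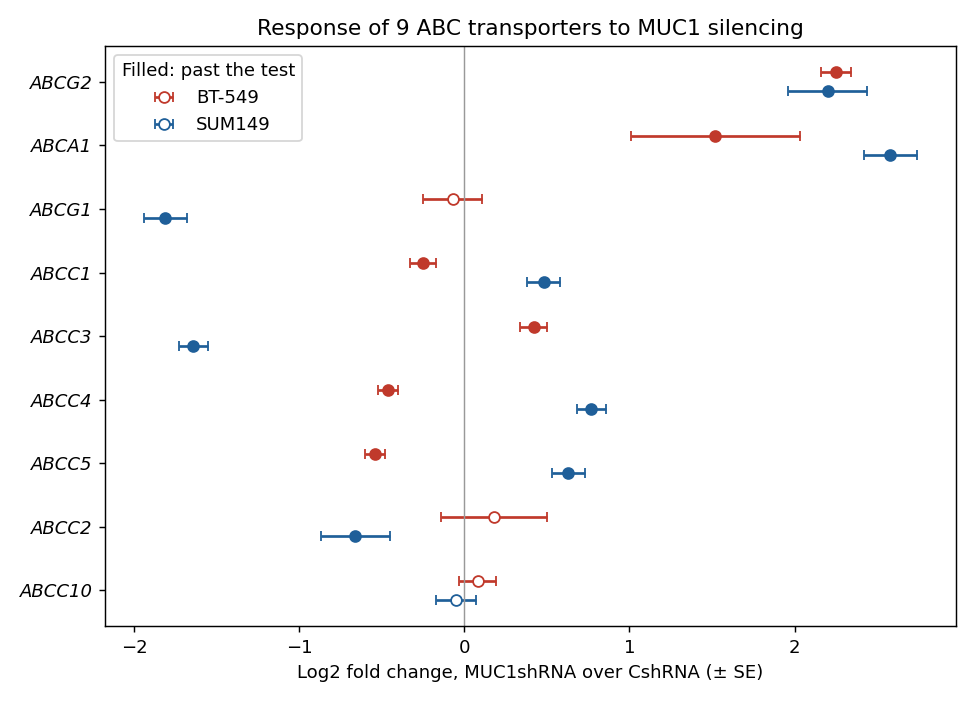
Log2 fold change of MUC1shRNA over CshRNA with its SE for the 9 tested transporters, BT-549 above SUM149 for each gene. Filled points passed edgeR's test at an adjusted p below 0.05. ABCG2 lies at 2.25 in BT-549 and 2.20 in SUM149, while ABCC3 lies at 0.42 in BT-549 and -1.64 in SUM149.

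Tested as an interaction over all 12 libraries, 5 of 9 responses differed between the lines, ABCC3 and ABCG1 with the higher value in BT-549 and ABCC4, ABCC5 and ABCC1 with the lower one. Over all 15649 genes tested in this way, 39.6% differed. ABCG2, ABCA1, ABCC2 and ABCC10 did not pass, which does not show that they responded alike.

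Before silencing the lines differed in most of these genes. In BT-549 CshRNA against SUM149 CshRNA, 8 of 9 transporters were called by edgeR's quasi-likelihood test, 4 higher and 4 lower in BT-549, where 83% of all 15649 genes were called. The libraries of the 2 lines were apart for 8 of the 9, against 84% of all genes, so the transporters differed about as often as any gene. ABCC4, ABCG2, ABCC1 and ABCC5 were higher in BT-549, by 3.25 (SE 0.07), 3.12 (SE 0.15), 0.67 (SE 0.09) and 0.47 (SE 0.08) on the log2 scale. ABCG1, ABCA1, ABCC3 and ABCC2 were lower in BT-549, with log2 fold changes of -2.79 (SE 0.13), -2.51 (SE 0.38), -2.31 (SE 0.09) and -1.06 (SE 0.28). ABCC10 stood at -0.22 (SE 0.11, edgeR adjusted p = 0.073). It passed under upper-quartile scaling (-0.35), under the stricter filter (-0.31) and without SUM149 CshRNA 3 (-0.27).

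With MUC1shRNA the means of 6 of the 9 genes lay nearer to each other in the 2 lines than with CshRNA. The share of all genes that did so was not counted, so this number says nothing of the transporters as a set. ABCC3 was 1.18 times higher in SUM149 than in BT-549 with MUC1shRNA and 4.96 times higher with CshRNA. ABCG1 was 2.05 times higher in SUM149 with MUC1shRNA and 6.89 times higher with CshRNA. ABCC4 was 4.12 times higher in BT-549 with MUC1shRNA and 9.52 times higher with CshRNA. The means of ABCC1, ABCC2 and ABCC10 were the other 3, but for ABCC2 and ABCC10 the interaction did not pass (adjusted p = 0.12 and 0.49, edgeR). ABCA1 averaged 11.9 times higher in SUM149 with MUC1shRNA and 6.07 times higher with CshRNA. Its interaction did not pass either (adjusted p = 0.14, edgeR), and without BT-549 CshRNA 3 its difference was -0.27, against -1.05 with all libraries. These ratios hold the same differences as the interaction and are no separate evidence.

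**Figure D3:**
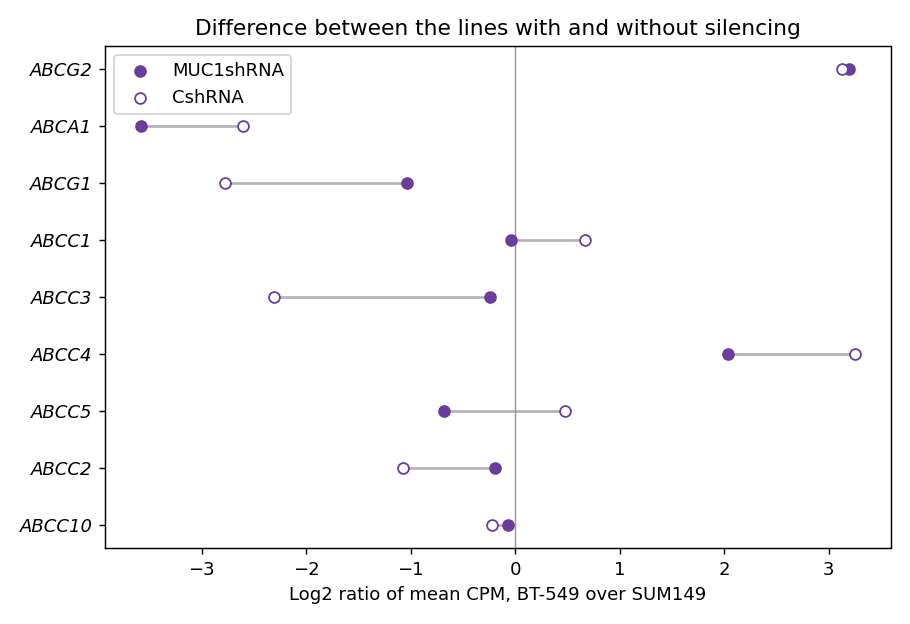
Log2 ratio of the mean CPM in BT-549 over SUM149 for 9 transporters, with MUC1shRNA (filled) and with CshRNA (open). ABCC3 lies at -0.24 with MUC1shRNA and at -2.31 with CshRNA, while ABCG2 lies at 3.19 with MUC1shRNA and 3.13 with CshRNA.

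Levels of different genes were compared as CPM per kilobase of exons, taken as the union of all exons annotated to a gene. That union can be longer than the transcript expressed, so the ranks and shares below depend on it. In BT-549 MUC1shRNA, ABCC4 (12.2 ± 0.202) and ABCG2 (10.6 ± 0.663) led, with 34.9% and 30.4% of the summed level of the 10 genes. In BT-549 CshRNA, ABCC4 (16.7 ± 1.08) alone held 52.9%, and ABCG2 (2.23 ± 0.176) ranked 5 with 7.05% (SD, n = 3 each). The sum itself was 35.0 ± 0.846 in BT-549 MUC1shRNA and 31.6 ± 1.14 in BT-549 CshRNA.

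In SUM149 MUC1shRNA, ABCC3 (4.41 ± 0.420 CPM per kilobase), ABCC1 (4.02 ± 0.406), ABCC5 (3.35 ± 0.272) and ABCC4 (2.96 ± 0.198) stood close together, and ABCC3 held 22.0% of the sum. In SUM149 CshRNA, ABCC3 (13.9 ± 1.17) held 51.7% and ABCG1 (3.37 ± 0.280) came next with 12.6%. The sum was 20.1 ± 0.764 in SUM149 MUC1shRNA and 26.8 ± 1.26 in SUM149 CshRNA. ABCG2 held 5.81% of the sum with MUC1shRNA and 0.950% with CshRNA, and stayed in the lower part of the order in both.

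**Figure D4:**
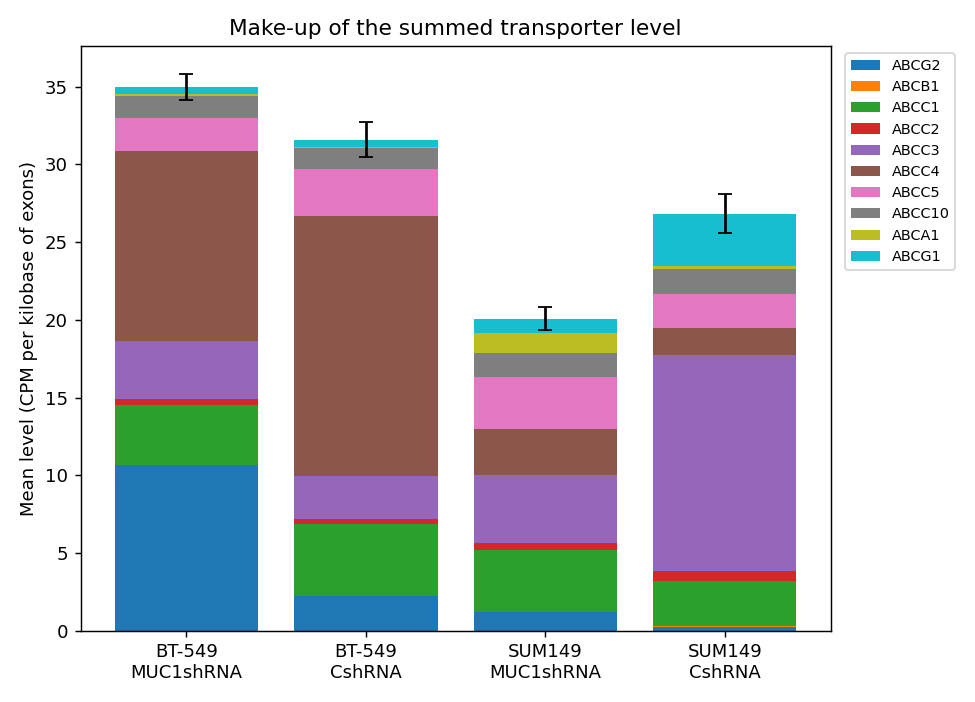
Stacked mean levels of the 10 transporters in CPM per kilobase of exons, 1 bar per group, with error bars giving the SD of the sum over 3 libraries. ABCC4 and ABCG2 fill most of the BT-549 MUC1shRNA bar, and ABCC3 fills 51.7% of the SUM149 CshRNA bar.

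Of the 38 other ABC genes, 19 had enough counts in BT-549, 4 were higher and 3 lower with MUC1shRNA, and their log2 fold changes ran from -0.63 to 0.45. That is 36.8% called, beside 33.3% of all genes. In SUM149, 21 were tested, 6 were higher and 7 lower, with log2 fold changes from -2.24 to 0.92, which is 61.9% called beside 56.5% of all genes. Their medians were -0.03 in BT-549 and -0.04 in SUM149. The ABCA subfamily, which moves lipids, had 6 tested members beside ABCA1 in each line. In BT-549, 2 of the 6 were higher and 0 lower, beside 2216 of all 13200 genes called higher. ABCA1 was higher there too, on few counts. In SUM149, 4097 of all 14178 genes were called lower. There 5 of the 6 were lower, 1 of them (ABCA3) through a single library, whereas ABCA1 was higher.

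Of these, ABCA12, the lipid transporter of keratinocyte lamellar granules, had the largest fall. It had 11.4, 10.8 and 9.63 CPM in SUM149 MUC1shRNA, against 55.4, 49.6 and 46.1 CPM in SUM149 CshRNA (log2 fold change -2.24, SE 0.11, edgeR adjusted p = 3.1e-09). ABCA4, the retinoid transporter of photoreceptors, averaged 3.00 ± 0.779 CPM with MUC1shRNA and 8.52 ± 0.439 CPM with CshRNA in SUM149 (-1.50, SE 0.19, edgeR adjusted p = 1.7e-05). ABCA3, which packs surfactant lipid in the lung, had 1.77, 1.00 and 0.770 CPM in SUM149 MUC1shRNA, against 1.38, 2.22 and 10.8 CPM in SUM149 CshRNA. Those groups overlapped, and 1 control library carried the call: the log2 fold change was -2.01 (SE 0.69, edgeR adjusted p = 0.023) and -0.61 (adjusted p = 0.12) without CshRNA 3. DESeq2 (adjusted p = 0.07) and limma-voom (0.17) did not call ABCA3. Leaving out MUC1shRNA 2 or MUC1shRNA 3 gave an edgeR adjusted p of 0.1 each for ABCA3.

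ABCD4, which takes part in lysosomal cobalamin export, was lower in both lines, by 0.63 in BT-549 (log2 fold change -0.63, SE 0.13, edgeR adjusted p = 0.0055) and 1.02 in SUM149 (-1.02, SE 0.16, adjusted p = 0.00011). ABCC11, the pump behind earwax type, had 2, 6 and 4 counts in SUM149 MUC1shRNA and 29, 30 and 15 in SUM149 CshRNA (log2 fold change -1.29, SE 0.45, edgeR adjusted p = 0.024). For ABCC11, DESeq2 gave an adjusted p of 0.085, and edgeR 0.099 without MUC1shRNA 1 and 0.091 without MUC1shRNA 3.

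**Figure D5:**
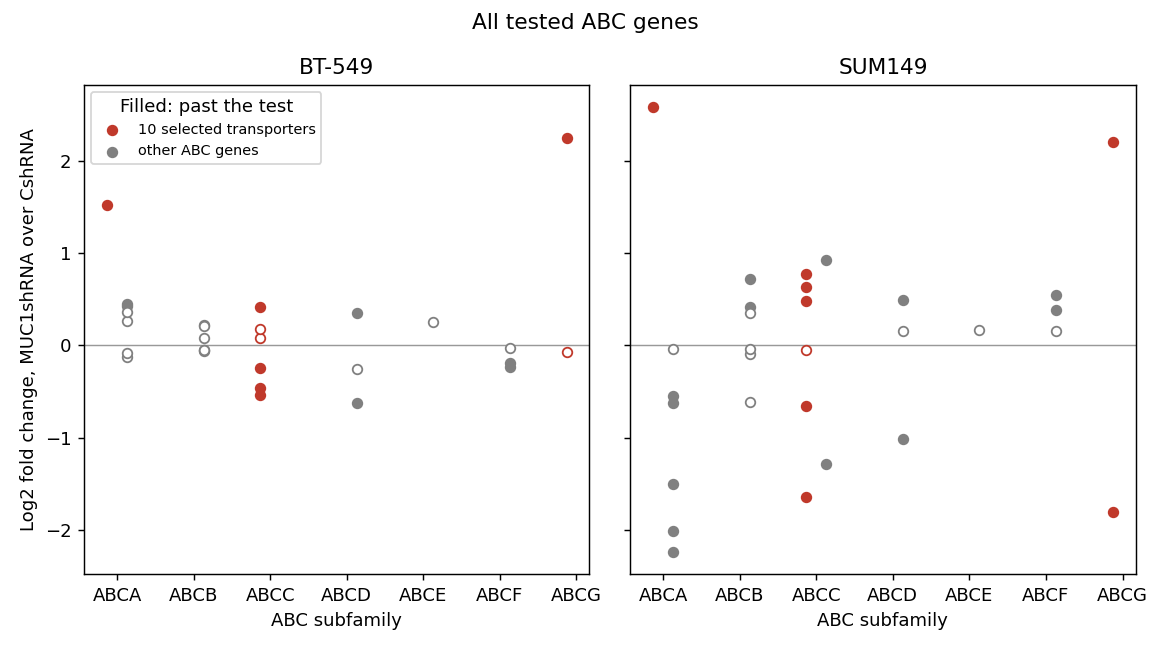
Log2 fold change of MUC1shRNA over CshRNA for every tested ABC gene by subfamily, BT-549 on the left and SUM149 on the right. The 9 tested genes of the selected 10 are red and the others grey, with filled points past edgeR's test. In SUM149 ABCA1 lies at 2.58 above the other ABCA genes, of which 5 of 6 lie below 0 and past the test.

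Genes around the transporters were counted by role, and each share called is to be read against 33.3% of all genes in BT-549 and 56.5% in SUM149. Of 13 LXR receptors and targets other than ABCA1 and ABCG1, 12 were tested in BT-549, with 4 higher and 1 lower with MUC1shRNA (41.7% called), and 10 in SUM149, with 1 higher and 4 lower (50%). SREBF1, the LXR target that drives fatty acid synthesis, rose by 0.85 (SE 0.07, edgeR adjusted p = 3.4e-05) in BT-549 and fell by 1.11 (SE 0.07, edgeR adjusted p = 5.5e-08) in SUM149. SCD, the stearoyl-CoA desaturase, likewise rose by 0.95 (SE 0.07, edgeR adjusted p = 1.9e-05) in BT-549 and fell by 0.90 (SE 0.06, edgeR adjusted p = 9.1e-08) in SUM149. In SUM149 the LXR targets ABCG1, SREBF1 and SCD were thus lower while ABCA1 was higher.

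Of 11 genes of cholesterol uptake and trafficking, all tested in both lines, 3 were higher and 1 lower in BT-549 (36.4% called, beside 33.3% of all genes), and 4 higher and 3 lower in SUM149 (63.6%, beside 56.5%). The high-density lipoprotein receptor SCARB1 fell by 0.76 (SE 0.07, edgeR adjusted p = 7.6e-05) and the sterol sensor partner INSIG1 rose by 0.58 (SE 0.06, edgeR adjusted p = 8.4e-05) in BT-549. In SUM149 the lysosomal cholesterol exporter NPC1 rose by 0.94 (SE 0.07, edgeR adjusted p = 1e-07), and SREBF2, the activator of cholesterol synthesis, fell by 0.90 (SE 0.08, edgeR adjusted p = 5.2e-07). INSIG1 was called higher in SUM149 too, by 0.23 (SE 0.09, edgeR adjusted p = 0.044), though its libraries overlapped there.

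Of 11 xenobiotic sensors, 9 were tested in each line. In BT-549, 2 were called (22.2%, beside 33.3% of all genes), both higher: PPARG by 0.31 (SE 0.08, edgeR adjusted p = 0.011) and AHR, the dioxin receptor, by 0.58 (SE 0.15, edgeR adjusted p = 0.015). In single omissions the PPARG call was lost without MUC1shRNA 1 (edgeR adjusted p = 0.056), and the AHR call without MUC1shRNA 1 (0.058), MUC1shRNA 3 (0.06) or CshRNA 1 (0.054). In SUM149, 4 were higher and 2 lower (66.7%, beside 56.5% of all genes). PPARG was among the higher ones there too (0.27, SE 0.07, edgeR adjusted p = 0.0066). The lower ones were AHR (log2 fold change -1.2, SE 0.13, edgeR adjusted p = 5.5e-06), and NFE2L2, which encodes the oxidative stress regulator NRF2 (log2 fold change -1.09, SE 0.07, edgeR adjusted p = 1.9e-08).

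Of 16 genes of glutathione synthesis and conjugation, which supply substrates to the ABCC pumps, 13 were tested in BT-549 and 5 were called, all lower (38.5%, beside 33.3% of all genes). They included the transferase GSTM3 (log2 fold change -0.79, SE 0.06, edgeR adjusted p = 2.3e-05) and the reductase GSR (-0.40, SE 0.05, adjusted p = 0.00059). GSTM3 was not called when all 12 libraries were fitted together (edgeR adjusted p = 0.08). In SUM149, 14 were tested, 3 were higher and 5 lower (57.1%, beside 56.5% of all genes). The synthetases GSS (log2 fold change -1.01, SE 0.07, edgeR adjusted p = 1.3e-07) and GCLC (-0.89, SE 0.08, adjusted p = 1.5e-06) were among the lower ones.

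Of 16 drug uptake carriers, 9 were tested in BT-549, with 4 higher and 2 lower (66.7% called, beside 33.3% of all genes), and 10 in SUM149, with 1 higher and 2 lower (30.0%, beside 56.5%). The nucleoside carrier SLC29A1 fell by 0.51 (SE 0.05, edgeR adjusted p = 0.00013) and the folate carrier SLC19A1 by 0.46 (log2 fold change -0.46, SE 0.07, edgeR adjusted p = 0.0011) in BT-549. In SUM149 the nucleoside carrier SLC29A2 (log2 fold change -1.08, SE 0.09, edgeR adjusted p = 2.5e-07) and the organic anion carrier SLCO4C1 (-1.28, SE 0.34, adjusted p = 0.005) were lower. SLC29A1 was higher in SUM149 (0.26, SE 0.09, edgeR adjusted p = 0.022) and SLC29A2 higher in BT-549 (0.84, SE 0.23, edgeR adjusted p = 0.018). SLC19A1 did not pass in SUM149 (edgeR adjusted p = 0.82), and SLCO4C1 could not be tested in BT-549. Of 6 membrane scaffold and vault partners, 5 were tested in each line, 3 lower in BT-549 and 2 higher and 1 lower in SUM149 (60.0% called in each, beside 33.3% and 56.5% of all genes). Radixin (RDX), which anchors ABCC2 at the canalicular membrane of liver cells, was lower in both, by 0.67 in BT-549 (log2 fold change -0.67, SE 0.05, edgeR adjusted p = 1.9e-05) and by 0.77 in SUM149 (log2 fold change -0.77, SE 0.08, edgeR adjusted p = 4e-06). The scaffold NHERF1 was lower in BT-549 (log2 fold change -0.51, SE 0.07, edgeR adjusted p = 0.00056), and ezrin (EZR) was higher in SUM149 (0.60, SE 0.07, adjusted p = 6.1e-06).

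The transporters with the widest range of group means in log2 CPM were ABCG2 (5.29) and ABCA1 (5.06). Over the 12 libraries and among 10739 genes with a mean of at least 5 CPM, the levels most like that of ABCG2 were those of FBXW11, ATP6V0A1 and ITGA5, with Pearson's r of 0.989, 0.987 and 0.986. Those most like ABCA1 were RAPGEF2, MED24 and PIGG, with r of 0.975, 0.973 and 0.970. These are descriptions over 12 libraries that share line and hairpin, with 111 genes at r of at least 0.95 for ABCG2 and 19 for ABCA1.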

How the data were processed

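Per the labels' protocols, RNA came from cultured cells by Trizol, and the library kit was TruSeq Stranded mRNA. The deposited table holds raw counts that the authors made per Ensembl gene identifier, not normalized. The build GRCh38.p7 and the tools STAR 2.7.0, CASAVA 1.8.2 and DESeq2 1.24.0 are listed, without roles, per the submitters' processing notes. The annotation release, counter and strand setting were not stated there, so reads from opposite strands of an overlap may be counted together. Names, exon lengths and overlaps came from GENCODE release 29, which held 98.96% of the identifiers. The 45 pseudoautosomal Y copies were left out.

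Separate fits per line were made in R 4.3.3 with edgeR 4.0.16 (TMM scaling, filterByExpr at its defaults, quasi-likelihood test), and calls were made at a Benjamini-Hochberg adjusted p below 0.05 over all tested genes. The difference between responses and the comparison of controls used all 12 libraries. Log2 fold changes are the first group named over the second. An SE is the size of the log2 fold change, taken before edgeR shrinks it at low counts, divided by the square root of edgeR's F. The log2 fold changes printed from edgeR are those after shrinking. The fits were tested on simulated data. The replicate numbers were checked for pairing, and no 2 libraries of a group were copies.

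The members and lists were chosen with earlier results of these data known. All 10 members were named. Of the other ABC genes, those called with an absolute log2 fold change of at least 1 and at least 1 CPM on average in the higher group were named, and of each other list, per line, the 2 genes of smallest adjusted p. Of the marker lists, levels and not responses are printed. For the 2 members with the widest range, the 3 genes of highest r were named. Alternatives were DESeq2-type size factors, upper-quartile scaling, no filter, limma-voom (limma 3.58.1), DESeq2 1.42.0, a minimum of 5 CPM in 3 libraries, a joint fit of both lines, a block for the replicate number, each library left out in turn and, added after seeing the data, BT-549 without MUC1shRNA 2 and CshRNA 3. Promoter sequences are RefSeq's on GRCh38.p14.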

Additional observations from a re-analysis of the deposited data

Results flagged for a closer look

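The responses of 5 transporters differed between the lines in the interaction test of edgeR over all 12 libraries, given as BT-549 minus SUM149 on the log2 scale. The values were 2.07 for ABCC3, 1.76 for ABCG1, -1.21 for ABCC4, -1.15 for ABCC5 and -0.71 for ABCC1. For ABCC1, ABCC3, ABCC4 and ABCC5 the change passed the test in each line, in opposite directions.

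The same test passed for 18 other genes named in the text, most of them with a response printed for a single cell line. Over all 15649 genes tested in this way, 39.6% passed. Most of these 18 were named for a small adjusted p within a line, so their number says nothing of their lists as sets. Among ABC genes the difference was 2.51 for ABCA12 and 2.94 for ABCC11, the second from few counts. Among lipid genes it was 1.97 for SREBF1, 1.87 for SCD, 0.79 for SREBF2, 0.37 for INSIG1, -0.76 for SCARB1 and -1.07 for NPC1. Among sensors and glutathione genes it was 1.80 for AHR, 1.06 for NFE2L2, 1.15 for GSS and 1.02 for GCLC. Among uptake carriers and scaffolds it was 1.94 for SLC29A2, 1.97 for SLCO4C1, -0.75 for SLC29A1, -0.48 for SLC19A1, -0.71 for NHERF1 and -0.41 for EZR. The value for SLCO4C1 also came from few counts, and neither SLCO4C1 nor ABCC11 could be tested in BT-549 alone. No cause of these differences was tested.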

How the results depend on the processing

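Of the transporters' results under single alternatives, 566 kept their direction and side of the threshold, 18 lost a call, 7 gained one and 6 changed sign. ABCG2 kept its call in both lines under every alternative run. The calls lost were those of ABCC1 and ABCA1 in BT-549 and ABCC2 in SUM149. The minimum of 5 CPM in 3 libraries removed ABCA1 in BT-549 and ABCC2 in SUM149 before testing, and such removals are not in these counts. Signs changed only for values that did not pass the test. In BT-549, ABCC2 ran from -0.09 (without MUC1shRNA 2) to 0.61 over single omissions, with -0.05 without CshRNA 2, and ABCG1 from -0.18 to 0.04 (without MUC1shRNA 2). In SUM149, ABCC10 ran from -0.12 to 0.02 (without CshRNA 1). The difference between lines for ABCG2 ran from -0.16 (without SUM149 CshRNA 3) to 0.23, with -0.00279 without BT-549 CshRNA 2. The cause was not tested. Genes called in BT-549 were 4398, and 2716 to 4470 with a library left out, the lowest without MUC1shRNA 1. Genes called in SUM149 were 8017, and 6866 to 8306 with a library left out, the highest without CshRNA 3. That library stood further from CshRNA 1 and 2 (chi-square per degree of freedom 13.5 and 10.6) than these from each other (3.80). Members called with a library left out were 4 or 5 in BT-549, and 7 or 8 in SUM149. Leaving out both BT-549 libraries that deviated together gave 5325 genes and 6 members. Of the other named results, 709 kept their call and 44 lost it, among them the differences between lines for SLCO4C1, ABCC11, INSIG1, NHERF1 and SLC19A1.

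The replicate numbers did not pair the samples: same-numbered libraries correlated at 0.219, -0.474 and -0.422 in BT-549 and -0.06, 0.032 and 0.104 in SUM149. With a replicate block edgeR called 2951 genes in BT-549 and 7934 in SUM149, and the members called were 4 and 8. In BT-549 ABCC1 (adjusted p = 0.096), ABCA1 (0.059) and AHR (0.058) were then not called, nor was the difference between lines for ABCC11 (0.062). Upper-quartile scaling moved the median log2 difference of all genes between the controls to -0.195, against -0.072 under TMM, and the signs of the members stayed. ABCB1, ABCA1 in BT-549, ABCC11 and SLCO4C1 were limited by depth.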
